A study of Mus musculus with 12 samples.

Results

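Promoters open from marrow progenitors to early T cell precursors can still differ in the score rank of their DNase I hypersensitive site (DHS). Described here are 652 such promoters. They were chosen among 21755 promoters of protein-coding genes on chromosomes 1 to 19 and X, each set at the start of the gene record. A promoter counted as open in a library when the midpoint of a called peak lay within 1 kb of that start, and 7885 promoters were open in all 12 libraries. For each of these always-open promoters, the highest-scoring peak of the window was given its percentile among all peaks of the same library, in points from 0 to 100, and the percentiles were averaged within each of 5 groups. The 652 promoters are those whose highest and lowest group means lay at least 40 points apart, which is 8.27% of the 7885 (the background to every count below). The percentiles chose the promoters, so they are given as a description and carry no test.

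The samples were DNase-seq libraries, which map where the nuclease DNase I can reach DNA, from C57BL/6J mouse marrow cells and their cultured progeny. LSK libraries (n = 3) came from freshly sorted, lineage-depleted marrow cells with high SCA-1 and KIT, which hold the stem and multipotent progenitor cells. DN1 (n = 2; KIT++ CD44+ CD25-), DN2a (n = 2; KIT++ CD44+ CD25+) and DN2b (n = 2; KIT+ CD44lo CD25+) cells were sorted from LSK cells grown on a high density of the immobilized Notch ligand Delta1ext-IgG, and IgG libraries (n = 3) came from LSK cells grown on control human IgG1 without Notch ligand. All cultures held SCF, FLT-3 ligand, IL-6 and IL-11, and DN2a and DN2b, unlike DN1, came from cultures that were also given IL-7, so stage and IL-7 cannot be told apart between DN1 and DN2. Replicates of a group came from independent LSK isolates, cultures of different groups could start from the same isolate, no genetic change was made, and the ages of the mice are not given in the sources used here.

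A promoter becomes hypersensitive to DNase I when bound factors displace or loosen its nucleosomes, and many promoters of broadly used genes remain so in nearly every cell type. In the thymus, Notch ligands on the stroma release the intracellular part of Notch1 in the arriving progenitor, where it joins the DNA-binding protein RBPJ and switches on target genes such as Hes1. Cells then pass from DN1 through DN2a to DN2b as T cell genes come on and stem cell and myeloid programmes are shut down, with RUNX proteins, E proteins, GATA3 and TCF1 as the main DNA-binding partners, and PU.1 as the myeloid factor that is lost.

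The windows under 7 of these peaks are shown because together they cover the main rank patterns described below, and each holds a short motif that was searched in all promoters. Every line holds the 300 bases centred on the median midpoint of the gene's top peak over the 12 libraries, from the mm10 genome and written 5′ to 3′ in the direction of the gene. Capitals mark the matches to 1 motif on either strand: TGGGAA (the core bound by RBPJ) in Hes1 and Arrdc4, TGTGGT (RUNX) in Runx3, CAGGTG (an E-box) in Cd5, GAGGAAGT (PU.1) in C1qc, TGANTCA (AP-1) in Cd68 and AGATAA (bound by GATA factors) in Edn1. Their positions are chr16:30065062-30065361 (+ strand) for Hes1, chr4:135120302-135120601 (+) for Runx3, chr19:10738852-10739151 (-) for Cd5, chr4:136892902-136893201 (-) for C1qc, chr7:68749242-68749541 (-) for Arrdc4, chr11:69666102-69666401 (-) for Cd68 and chr13:42301262-42301561 (+) for Edn1.
Hes1: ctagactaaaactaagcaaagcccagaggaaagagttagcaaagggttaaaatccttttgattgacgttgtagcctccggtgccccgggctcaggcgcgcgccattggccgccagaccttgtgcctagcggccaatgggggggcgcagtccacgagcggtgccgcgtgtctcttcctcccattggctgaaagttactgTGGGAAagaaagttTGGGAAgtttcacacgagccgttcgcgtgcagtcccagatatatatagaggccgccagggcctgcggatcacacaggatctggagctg
Runx3: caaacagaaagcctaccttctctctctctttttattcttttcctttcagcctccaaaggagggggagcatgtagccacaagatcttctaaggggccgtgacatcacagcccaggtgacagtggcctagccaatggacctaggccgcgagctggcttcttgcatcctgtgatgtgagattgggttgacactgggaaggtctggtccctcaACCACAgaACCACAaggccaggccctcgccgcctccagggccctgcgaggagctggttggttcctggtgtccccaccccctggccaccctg
Cd5: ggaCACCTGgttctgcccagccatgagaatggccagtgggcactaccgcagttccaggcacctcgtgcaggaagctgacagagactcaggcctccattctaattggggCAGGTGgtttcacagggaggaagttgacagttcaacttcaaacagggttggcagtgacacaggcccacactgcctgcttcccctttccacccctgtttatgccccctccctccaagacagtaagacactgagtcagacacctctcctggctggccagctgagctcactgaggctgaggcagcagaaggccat
C1qc: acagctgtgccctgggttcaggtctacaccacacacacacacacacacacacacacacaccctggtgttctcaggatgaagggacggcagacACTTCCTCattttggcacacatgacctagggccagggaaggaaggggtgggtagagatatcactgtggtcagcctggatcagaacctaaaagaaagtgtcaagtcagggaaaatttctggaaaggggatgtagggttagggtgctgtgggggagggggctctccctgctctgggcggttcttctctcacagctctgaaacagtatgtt
Arrdc4: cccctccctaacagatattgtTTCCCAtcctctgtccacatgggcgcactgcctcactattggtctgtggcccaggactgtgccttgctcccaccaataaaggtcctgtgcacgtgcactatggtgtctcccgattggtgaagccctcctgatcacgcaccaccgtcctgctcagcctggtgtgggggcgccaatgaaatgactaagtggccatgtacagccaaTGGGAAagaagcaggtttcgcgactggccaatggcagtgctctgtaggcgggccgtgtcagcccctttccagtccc
Cd68: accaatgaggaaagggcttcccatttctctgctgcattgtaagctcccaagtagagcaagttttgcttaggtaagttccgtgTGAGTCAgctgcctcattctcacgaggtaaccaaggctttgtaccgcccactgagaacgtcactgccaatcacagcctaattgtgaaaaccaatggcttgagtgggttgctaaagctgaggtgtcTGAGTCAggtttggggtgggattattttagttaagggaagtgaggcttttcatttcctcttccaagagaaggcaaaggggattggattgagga
Edn1: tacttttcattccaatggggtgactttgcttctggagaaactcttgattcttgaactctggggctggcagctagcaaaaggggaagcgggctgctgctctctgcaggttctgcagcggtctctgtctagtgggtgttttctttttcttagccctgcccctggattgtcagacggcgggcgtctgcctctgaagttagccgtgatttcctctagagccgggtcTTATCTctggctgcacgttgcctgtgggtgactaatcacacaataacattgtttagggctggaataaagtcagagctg

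The Hes1 window was centred 827 bp inside the gene record, in an annotated intron, and held 2 RBPJ core matches on the sense strand a short way apart. That place is relative to the start of the gene record. The window lies near the middle of the stretch that the paper shows as the Hes1 promoter. The Runx3 window was centred 201 bp before the gene start and held 2 adjacent RUNX matches, 1 E-box CAGGTG and 1 RBPJ core. The Cd5 window was centred 1 bp inside the start, in untranslated exon sequence, with 2 E-boxes CAGGTG, 1 E-box CAGCTG and 1 match each to PU.1 and AP-1. The windows of Arrdc4 (150 bp before the start), Cd68 (98 bp before) and Edn1 (65 bp before) lay outside gene records, and that of C1qc (14 bp inside) in untranslated exon sequence. A match names letters only, and binding was not measured.

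The lists differed in length and the length bears on every value below. The libraries held 53869 to 62377 peaks in LSK, 96436 and 69391 in DN1, 68478 and 57729 in DN2a, 61484 and 111582 in DN2b, and 32952 to 37511 in IgG, each peak 150 bp wide with a whole-number score from 1 to 150 whose meaning is not given in the sources used here. The score thus served only as a rank within its library, and the read depth behind it is unknown. Of 10 promoters of T lineage marker genes, 0 were open in IgG, 1 or 2 in LSK, 4 in DN1, 7 in DN2a and 8 or 9 in DN2b, and of 10 stem and progenitor markers 2 to 4 were open in IgG, 5 or 6 in LSK and DN2b, 5 in DN1 and 4 or 5 in DN2a. Of 10 myeloid and mast cell markers, 4 or 5 were open in IgG, 2 or 3 in LSK, 3 in DN1 and DN2a and 3 or 4 in DN2b, and the part of such cells in the IgG ranks was not tested. In sorted cell populations, a weaker peak in every cell and a peak in fewer of the cells cannot be told apart.

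The rank-changing promoters stood lower in IgG than in LSK, DN1, DN2a and DN2b. Their median percentile was 38.0 in IgG, against 77.6 in LSK, 77.7 in DN2a and 83.5 in both DN1 and DN2b. For all always-open promoters the medians were 82.6 in IgG, 90.8 in LSK, 90.7 in DN2a, 93.1 in DN1 and 92.7 in DN2b. Ranked among always-open promoters alone, the 652 were low in every group and the gap was smaller, with medians of 7.80 in IgG, 16.1 in LSK, 17.0 in DN2a, 17.1 in DN1 and 18.4 in DN2b. Library by library, on the first scale, the medians were 78.1, 76.9 and 79.4 in LSK, 86.3 and 81.3 in DN1, 79.3 and 75.9 in DN2a, 78.3 and 88.2 in DN2b, and 39.9, 29.3 and 40.04 in IgG. The 3 IgG libraries lay apart from the other 9, and the longest list of DN1 and of DN2b had the higher median of its pair. Between 435 and 547 of the 652 promoters fell below percentile 50 of an IgG list, but only 3 to 62 of them did so in any other list.

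**Figure D1:**
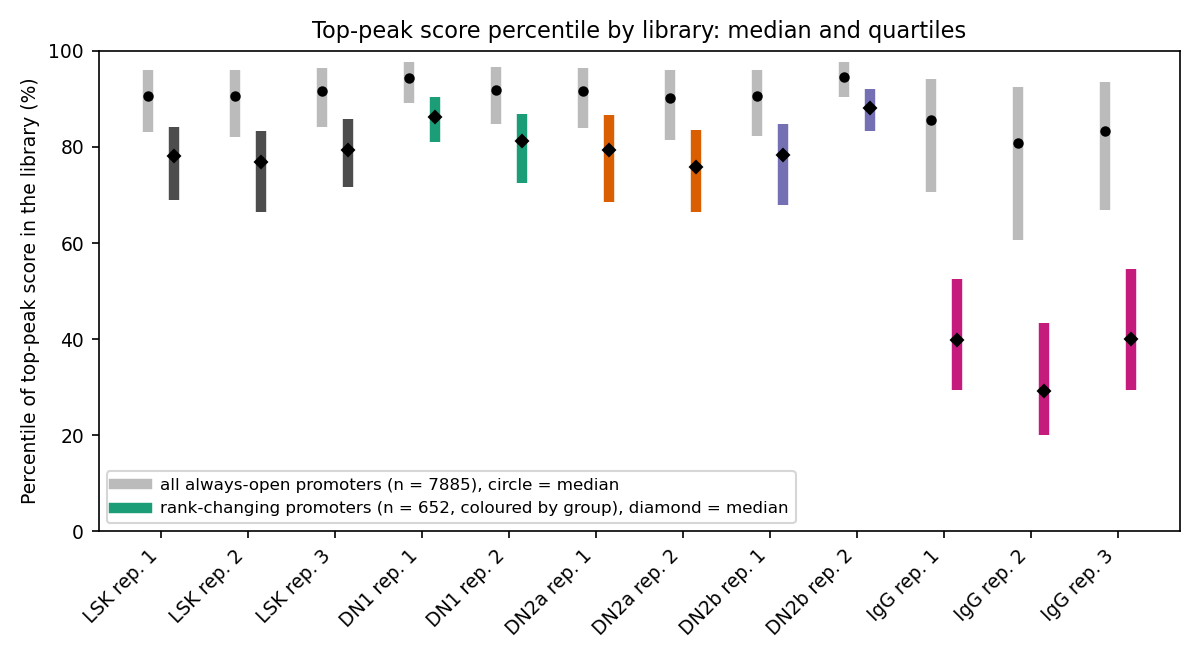
Percentile of the top-peak score within each library (y axis, %) for the 12 libraries (x axis), with bars from the lower to the upper quartile. Grey bars with circles (median) are all 7885 always-open promoters and coloured bars with diamonds (median) the 652 rank-changing promoters, whose medians sit at 29.3 to 40.04 in the IgG libraries and at 75.9 to 88.2 in the others.

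IgG gave the lowest group mean for 599 of the 652 promoters (91.9%), where it was also lowest for 75.4% of all always-open promoters. DN2a was lowest for 33, LSK for 12, DN2b for 8 and DN1 for 0. The replicates of IgG also spread most at these promoters, with a median SD of 13.8 points against 6.69 in DN2b, 4.37 in LSK, 3.62 in DN2a and 3.55 in DN1. They also spread most at all always-open promoters, with 4.60 points against 2.84 in DN2b, 1.98 in LSK, 1.75 in DN2a and 1.59 in DN1. Every library of the highest group lay above every library of the lowest group at 652 of 652 promoters, as it did at 87.5% of all always-open promoters. The lowest group lay below all 9 or 10 other libraries at 528 promoters (81.0%; background 40.7%), whereas the highest group stood above all other libraries at 118 (18.1%; background 12.7%). Separation from all other libraries was thus more frequent at the low end than at the high end, and the rule itself favours separation.

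By group of highest rank, 264 promoters belonged to DN1 (3.35% of always-open promoters), 258 to DN2b (3.27%), 89 to LSK (1.13%), 32 to DN2a (0.406%) and 9 to IgG (0.114%). The shares of the 652 (40.5% DN1, 39.6% DN2b, 13.7% LSK, 4.91% DN2a and 1.38% IgG) were close to those of all always-open promoters for DN1 and LSK (41.8% and 14.0%), higher for DN2b (31.4%) and lower for DN2a (8.07%) and IgG (4.72%). Which of DN1 and DN2b came out highest depended on 1 library in each. Without DN1 replicate 2, 507 promoters were highest in DN1, and without DN2b replicate 1, the shorter list of its pair, 687 were highest in DN2b and 110 in DN1. Without DN2b replicate 2, the longest list of all, 100 were highest in DN2b.

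The size of a difference also depended on the scale. Of 74 promoters followed under every processing alternative, most of them named here, 51 had a difference between their highest and lowest group that moved by more than 1 SD of the replicates when ranks were taken among the always-open promoters alone (called the always-open scale below), and 36 were not open in all 12 libraries once the lists were cut to equal lengths.

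**Figure D2:**
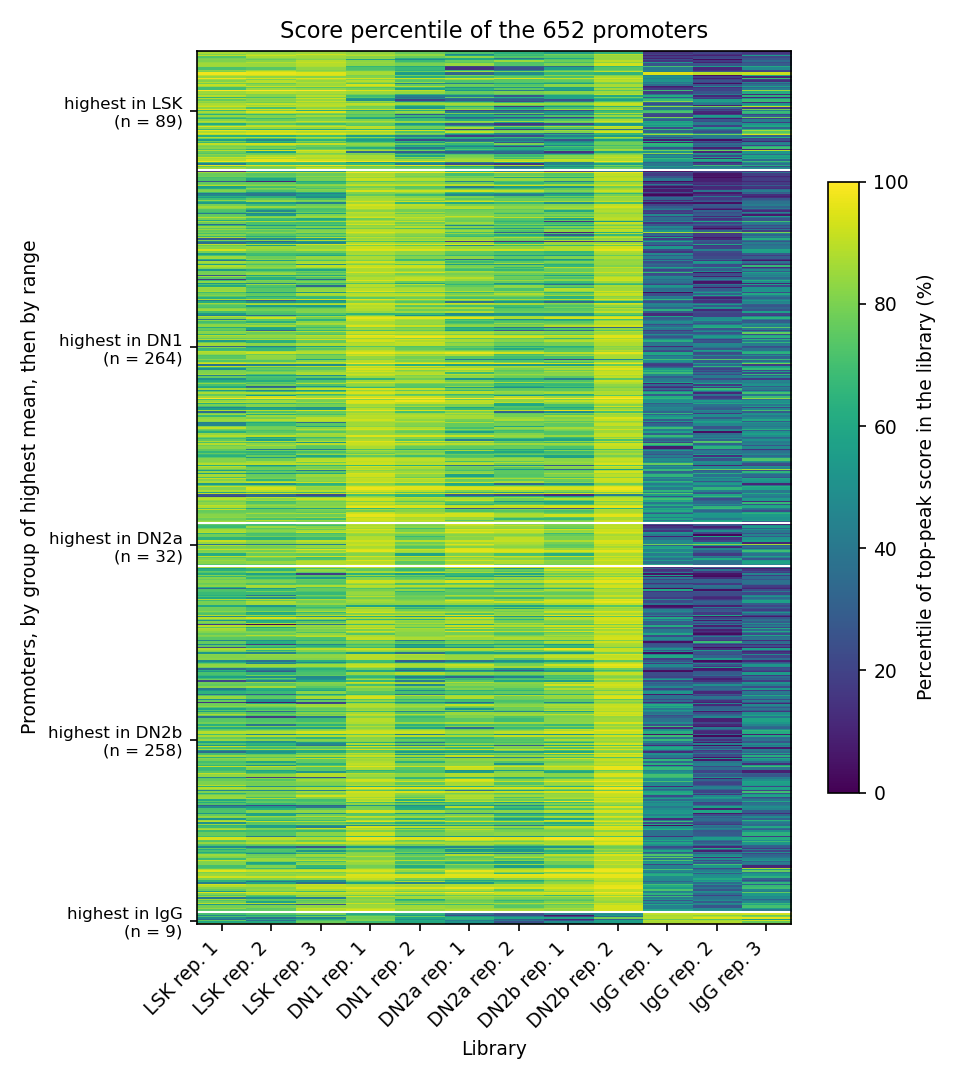
Percentile of the top-peak score (colour, 0 to 100%) for each of the 652 promoters (rows, grouped by the group of highest mean and sorted by range) in each library (columns). In the 3 IgG columns, 435 to 547 of the 652 rows lie below percentile 50, and the 9 promoters highest in IgG are at the bottom. DN1 replicate 1 and DN2b replicate 2 are the brightest columns.

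Among the 264 promoters highest in DN1, Hes1 is the canonical Notch target, encoding a basic helix-loop-helix repressor that early T cell precursors need. Its top peak stood at 85.9, 87.9 and 89.3 in LSK, 98.1 and 98.0 in DN1, 96.8 and 98.3 in DN2a, 94.5 and 98.4 in DN2b, and 26.6, 17.0 and 37.6 in IgG. All 9 libraries of marrow or Delta1-grown cells lay above the 3 IgG libraries, and all 6 Delta1 libraries lay above the 3 LSK libraries. The range was 71.0 points, from a DN1 mean of 98.1 ± 0.0406 (SD, n = 2) to an IgG mean of 27.0 ± 10.3 (n = 3). The raw score in the peak lists was 103 and 121 in DN1, 63 to 73 in LSK and 19 to 25 in IgG. Ranked only among the always-open promoters, Hes1 had group means of 83.1 in DN2a, 81.3 in DN1, 74.2 in DN2b, 38.0 in LSK and 3.22 in IgG, so that on this scale LSK stood nearer the middle between the ligand cultures and IgG.

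C1qc, which encodes a chain of complement C1q and is a macrophage product, had the largest range of the DN1 set, 71.2 points. Its peak stood at 82.0 and 82.5 in DN1, 12.6, 51.4 and 50.7 in LSK, 60.9 and 42.3 in DN2a, 17.8 and 36.9 in DN2b, and 3.0, 17.0 and 13.1 in IgG. Both DN1 libraries lay above the other 10, and the level was lower at each later stage in the group means (51.6 in DN2a, 27.3 in DN2b). Among always-open promoters its rank was low in every group (DN1 mean 14.6, all others 2.36 or lower).

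The other promoters with the widest ranges in the DN1 set fell far in IgG and varied little elsewhere. Pick1, a PDZ-domain scaffold that binds protein kinase C, shared its peaks with Gm49486 and stood at 70.6 to 90.4 in the 9 libraries outside IgG and 17.9, 5.4 and 18.3 in IgG (range 70.3). Thoc3, a subunit of the THO complex that couples transcription to mRNA export, stood at 76.9 to 89.4 and at 26.6, 6.9 and 10.7 in IgG (range 69.6). Pard6g, a cell polarity protein, had a range of 68.0, and the divergent pair Nipal3 and Stpg1, which share their peaks, one of 67.8. On the always-open scale the ranges were 17.8 for Pick1, 21.9 for Thoc3 (with DN2a highest), 14.5 for Pard6g and 34.1 for Nipal3. None of these 4 peak sets separated DN1 from the other stages: their DN1 libraries overlapped those of DN2b.

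Melk, Prim1 and Gpr55, named after their values were seen, were low in LSK as well as in IgG. Prim1, the catalytic subunit of primase, stood at 36.0, 51.4 and 46.5 in LSK, 87.1 and 84.2 in DN1, 83.8 and 67.7 in DN2a, 84.1 and 84.6 in DN2b, and 32.3, 23.1 and 42.4 in IgG. All 6 Delta1 libraries lay above all LSK and IgG libraries. Melk, a kinase of dividing cells, showed the same order less cleanly (LSK 27.3, 10.5 and 61.3, DN1 74.2 and 76.2, IgG 3.0 to 10.7), with LSK replicate 3 above DN2a replicate 1 and DN2b replicate 1. Gpr55, a lysophospholipid receptor, was lowest in LSK (18.2, 62.1 and 34.7) and highest in DN1 (87.6 and 91.1). On the always-open scale the range was 31.6 points for Gpr55, and DN1 stood 16.9 points above IgG for Prim1 and 6.96 for Melk, with none of the 3 open in all libraries at equal lengths.

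Runx3 encodes a Runt-domain transcription factor of T and natural killer cells. Its top peak was among the highest-scoring of the list in all 9 libraries outside IgG (99.3 to 99.98) and stood at 65.3, 20.03 and 82.5 in IgG. The groups did not overlap, but the IgG replicates lay far apart, and the range of 43.8 rests on an IgG mean of 56.0 ± 32.3 (SD, n = 3). Outside IgG the choice of DN1 as the highest group (mean 99.8) over DN2b (99.8), DN2a (99.6) and LSK (99.4) lay within the spread of the replicates. Ranked among always-open promoters, Runx3 ran from 98.4 in DN2b to 23.5 in IgG.

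Cd5 encodes a surface receptor that dampens T cell receptor signals and appears as cells commit to the T lineage. Its peak stood at 41.2, 49.3 and 44.3 in LSK, 80.4 and 85.3 in DN1, 83.8 and 80.7 in DN2a, 80.3 and 87.1 in DN2b, and 42.3, 38.2 and 48.9 in IgG. The 6 Delta1 libraries (80.3 to 87.1) lay far above the 6 others (38.2 to 49.3) with no overlap, and LSK and IgG overlapped. The range was 40.6 points between DN2b (83.7 ± 4.77) and IgG (43.1 ± 5.43), while LSK (44.9 ± 4.07) differed from IgG by less than the spread of either. DN1, DN2a and DN2b could not be ordered beyond their spread. The gap was smaller on the always-open scale, with group means of 1.0 in LSK, 8.6 in IgG, 16.8 in DN1, 17.6 in DN2b and 24.1 in DN2a, and Cd5 was not open in every library at equal lengths.

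The 2 Notch pathway members were Hes1 and Dtx2 out of 17 always-open promoters on a Notch signalling list of 34 genes. Dtx2 encodes a Deltex ubiquitin ligase that binds Notch. Its peak stood at 65.0, 76.0 and 77.9 in LSK, 90.5 and 83.1 in DN1, 79.3 and 74.98 in DN2a, 81.7 and 92.0 in DN2b, and 62.8, 35.3 and 26.8 in IgG. IgG lay below the others in all 3 libraries, and DN1 and DN2b, both with a mean of 86.8, were not separated. The range was 45.2 points, and 19.2 on the always-open scale. The share of members on this list (11.8%) stood near the 8.27% of all always-open promoters, and its median range of 8.69 points was below the 11.9 of all.

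Other lists held few members, and the T lineage list gave Runx3 and Cd5 out of only 5 always-open promoters among its 40 genes. Ifih1, the cytosolic sensor of double-stranded RNA also called MDA5, stood at 85.9 to 95.7 outside IgG and 32.3, 58.8 and 34.9 in IgG. Cdkn2c, an inhibitor of CDK4 and CDK6, stood at 74.1 to 88.6 outside IgG and 44.5, 48.3 and 44.7 in IgG, with a range of 41.8 points that was 16.9 on the always-open scale. Each was 1 member of a list with 19 (interferon and antigen presentation) or 24 (cell cycle and growth) always-open promoters. No member came from the lists for stem and progenitor genes (10 always-open), AP-1 and immediate early genes (21), sterol and fatty acid synthesis (24), housekeeping genes (18), erythroid and megakaryocyte genes (3) or B lineage genes (4). On lists this short, a count of 0 does not show stable ranks. The median range was 24.8 points on the stem and progenitor list and 21.3 on the B lineage list, against 11.9 for all always-open promoters. It was 37.7 on the T lineage list and 1.53 to 5.93 on the other lists without a member.

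The 32 promoters highest in DN2a stood only a little above the other Delta1 stages. Pola2, the B subunit of DNA polymerase alpha, stood at 92.4 and 82.7 in DN2a, 88.7 and 81.9 in DN1, 80.3 and 89.6 in DN2b, 68.8 to 76.3 in LSK, and 20.8, 26.2 and 7.2 in IgG. Its DN2a, DN1 and DN2b libraries overlapped, all above LSK, and IgG was far below (range 69.5). Akr1c13, an aldo-keto reductase, Nwd1 and BC052040 had ranges of 61.2, 59.7 and 59.3 with IgG lowest. On the always-open scale the range was 38.6 for Pola2 and 39.5, 28.1 and 22.4 for these 3. Sirt5, a mitochondrial lysine deacylase, was the only one of the 32 whose highest group lay above all other libraries, with 93.8 and 94.8 in DN2a against 92.3 and 92.4 in DN2b, 93.0 and 80.0 in DN1, 77.1 to 85.9 in LSK and 26.6 to 50.9 in IgG. For Sac3d1 (range 56.4), DN2a (91.2 and 90.6) overlapped DN2b (84.7 and 92.0).

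The 258 promoters highest in DN2b were led by Mill2, which encodes an MHC class I-like molecule. Its top peak, 725 bp inside the gene in an intron, stood at 97.0 and 98.8 in DN2b, 95.1 and 92.7 in DN2a, 92.4 and 84.8 in DN1, 86.4, 90.2 and 89.7 in LSK, and 12.2, 26.2 and 32.2 in IgG. Both DN2b libraries lay above the other 10, and the 3 IgG libraries lay below all others. The range was 74.3 points (DN2b 97.9 ± 1.27, IgG 23.5 ± 10.2), and it was 78.5 at equal list lengths and 79.9 on the always-open scale. With all scores of the window summed and ranked on that scale, DN2b stood 34.6 points above IgG, and a window of 500 bp would not hold the peak.

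Rab11fip2, an effector of the recycling GTPase Rab11, stood at 81.0 and 86.7 in DN2b, 52.5 to 75.01 in the other libraries outside IgG, and 29.5, 8.9 and 7.2 in IgG (range 68.6). Klhl42, a substrate adaptor of cullin-3 ligases, stood at 91.9 and 90.7 in DN2b, 63.5 to 82.9 in the other libraries outside IgG and 14.998 to 38.2 in IgG. In both promoters DN2b lay above all other libraries. The zinc-finger gene Zfp874b (range 65.5), the E2F family gene E2f5 (65.2) and Tex264, a receptor for the autophagy of endoplasmic reticulum (62.1), were likewise lowest in IgG, and only in Tex264 did DN2b (77.5 and 83.8) clear every other library. Ranges on the always-open scale were 16.7 for Rab11fip2, 37.4 for Klhl42, 19.5 for Zfp874b, 35.8 for E2f5 and 10.7 for Tex264 (with DN1 lowest).

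Socs2, a suppressor of cytokine signalling, stood at 93.5 and 93.4 in DN2b, 82.0 and 80.7 in DN2a, 70.7 and 47.4 in DN1, 75.1 to 79.4 in LSK, and 34.9, 50.5 and 42.4 in IgG. DN2b lay above every other library, and DN1 reached down into the IgG range in replicate 2. Socs2 was the only member on a cytokine receptor and STAT list with 21 always-open promoters. Maf, a basic leucine zipper factor of macrophages and some T cells, stood at 95.7 and 97.2 in DN2b, 91.0 to 92.7 in DN1 and DN2a, 80.3 to 83.5 in LSK, and 70.7, 23.1 and 58.2 in IgG. Its libraries fell in the order DN2b, then DN1 with DN2a, then LSK, then IgG without overlap between those steps. Cd274, which encodes the checkpoint ligand PD-L1 and was named after its values were seen, shared its peaks with the neighbouring Plgrkt and stood at 94.2 and 96.1 in DN2b, 89.1 to 94.5 in DN1 and DN2a, 74.6 to 81.7 in LSK and 32.3 to 37.6 in IgG.

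The 89 promoters highest in LSK fell into 64 that were lowest in IgG, 24 lowest in DN2a and 1 lowest in DN2b. Of the 6 widest, all lowest in IgG, Edn1, the precursor of the vasoconstrictor endothelin-1, stood at 86.9, 84.6 and 84.7 in LSK, 83.1 and 76.2 in DN1, 71.6 and 63.9 in DN2a, 55.9 and 65.0 in DN2b, and 14.998, 20.03 and 15.6 in IgG. LSK lay above all other libraries, and the group means fell from LSK (85.4) through DN1 (79.7) and DN2a (67.8) to DN2b (60.5) and IgG (16.9), with DN2a and DN2b overlapping. Iqsec3, an exchange factor for ARF GTPases (range 69.7), Tbc1d4, a Rab GTPase-activating protein (68.3), and Lrig1, an inhibitor of ErbB receptors (65.5), overlapped between LSK and the Delta1 libraries. Dync1li2, a dynein light intermediate chain, and Ankrd2, a muscle ankyrin repeat protein, both had a range of 62.1. On the always-open scale the 6 ranges were 29.6 for Edn1, 19.6 for Iqsec3, 36.4 for Tbc1d4, 41.2 for Lrig1, 23.3 for Dync1li2 and 20.7 for Ankrd2.

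The 9 promoters highest in IgG are each given here. Arrdc4, an arrestin-domain protein of the family that holds the glucose-responsive Txnip, had the widest range of all 652, 91.2 points. Its peak stood at 98.9, 99.6 and 99.6 in IgG, 99.3, 99.3 and 98.9 in LSK, 89.8 and 71.7 in DN1, 7.8 and 8.5 in DN2a, and 2.6 and 18.95 in DN2b. LSK and IgG overlapped at the top, DN1 lay between, and both DN2 stages lay at the bottom, the ones grown with IL-7. The raw score was 108 to 119 in LSK and IgG and 9 to 24 in DN2a and DN2b. Without IgG its range was 91.0 points, from LSK to DN2a.

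Cd68, a lysosomal glycoprotein of macrophages, stood at 97.9, 96.9 and 97.7 in IgG, 91.4, 86.3 and 89.7 in LSK, 89.4 and 83.6 in DN1, 53.1 and 54.4 in DN2a, and 59.0 and 65.0 in DN2b. IgG lay above all other libraries and both DN2 stages below all others. Lyz2, which encodes lysozyme of macrophages and granulocytes, stood at 77.7, 73.1 and 58.2 in IgG, 79.8 and 51.5 in DN1, 36.0, 58.9 and 62.8 in LSK, 62.3 and 30.2 in DN2a and 10.8 and 32.2 in DN2b, with DN2b overlapping only DN2a. The range of Lyz2 (48.2 points) was 29.8 on the always-open scale, whereas the 43.7 points between IgG and DN2a at Cd68 were 87.0. With Maf, these were 3 of 8 always-open promoters on a myeloid, granule and mast cell list of 42 genes, and Maf, unlike the others, was lowest in IgG. The median range on that list was 21.7 points, against 11.9 for all always-open promoters.

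Paqr7, a membrane progestin receptor, stood at 90.5, 91.8 and 93.5 in IgG, 70.1 to 78.7 in LSK, 62.0 and 64.6 in DN1, 37.2 and 25.3 in DN2a and 42.7 and 49.7 in DN2b, in that order of groups without overlap between IgG, LSK, DN1 and the DN2 stages. In a window of 2.5 kb its difference between IgG and DN2a was -3.22 points, against 60.7 in 1 kb. Soat2, an enzyme that esterifies cholesterol, was the only one of the 9 lowest in LSK (48.6, 37.2 and 46.5), with 89.4, 94.9 and 95.9 in IgG and 57.5 to 79.6 in the Delta1 libraries. Dmxl2, a regulator of the vesicular proton pump (range 57.3), Ltbr, the lymphotoxin beta receptor (57.0), Ptges, a prostaglandin E synthase (47.9), and Thbs1, the matrix protein thrombospondin-1 (45.5), were also highest in IgG and lowest in DN2a or DN2b. None of the 9 was open in all 12 libraries when the lists were cut to equal length.

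**Figure D3:**
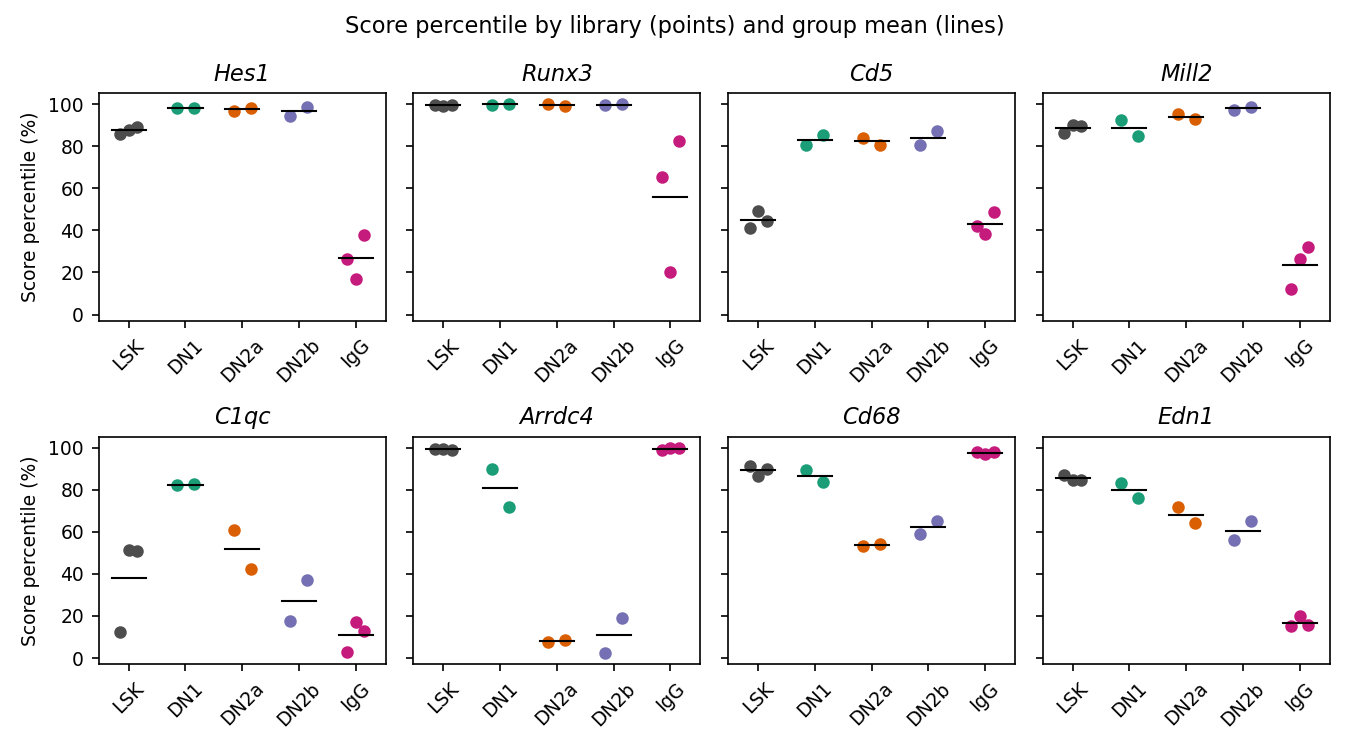
Percentile of the top-peak score (y axis, %) for 8 promoters, with a point for each library and a line at the group mean, for LSK (n = 3), DN1, DN2a and DN2b (n = 2 each) and IgG (n = 3). Hes1, Runx3 and Mill2 are low only in IgG, Cd5 is low in LSK (44.9) and IgG (43.1), C1qc is highest in DN1, Arrdc4 and Cd68 are low in both DN2 stages, and Edn1 is highest in LSK (85.4).

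Most ranges of 40 points or more were present only with IgG in the comparison. Over LSK, DN1, DN2a and DN2b alone, 52 of the 7885 always-open promoters (0.659%) kept such a range, all of them among the 652. Their highest group was LSK for 27, DN1 for 16, DN2b for 8 and DN2a for 1, and their lowest DN2a for 29, LSK for 14, DN2b for 9 and DN1 for 0. For the 599 promoters lowest in IgG, the range over the other 4 groups had a median of 11.8 points, under 20 points in 477 (79.6%), where that of all always-open promoters was 4.73. The genes named from these 52 in the next 2 paragraphs were picked after their values were seen.

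Pcbp3, an RNA-binding protein, stood at 99.5, 99.7 and 99.6 in LSK, 94.3 and 90.0 in DN1, 53.1 and 42.3 in DN2a, 52.6 and 74.98 in DN2b, and 68.7, 20.03 and 85.1 in IgG. Fer, a cytoplasmic tyrosine kinase, stood at 97.8, 96.8 and 95.04 in LSK, 95.3, 89.6 and 92.1 in IgG, 86.7 and 55.1 in DN1, and 32.6 to 66.8 in DN2a and DN2b. In both, LSK lay above both DN2 stages with no overlap; Fer shared the Arrdc4 order, with LSK and IgG high and DN2a lowest. Others high in LSK and low in DN2a were Wwc2 (range 59.1), the BMP receptor gene Acvr1 (56.7) and the nuclear receptor coactivator gene Pnrc1 (50.8), and Jup, the junction protein plakoglobin, was lowest in DN2b (45.7). On the always-open scale the same differences were larger for Pcbp3 (96.0, against 51.9), Fer (76.0, against 55.9) and Jup (69.7) and smaller for Wwc2 (31.6), Acvr1 (14.5) and Pnrc1 (40.1), and with every protein-coding start site Pnrc1 differed by 0.254 points between LSK and DN2a.

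A further 3 promoters, named after their values were seen and on none of the gene lists, were high in DN1 and low in DN2b: Ms4a7 (92.4 and 90.8 against 15.3 and 54.7), Nfam1, an ITAM-bearing receptor (94.3 and 90.4 against 10.8 and 63.2), and Cfp, which encodes properdin (80.9 and 77.0 against 28.2 and 33.8). Their IgG libraries stood at 46.7 to 69.3, 79.6 to 87.1 and 48.7 to 73.6, and their LSK libraries at 85.9 to 87.3, 79.6 to 82.9 and 60.5 to 68.3. The difference between DN1 and DN2b was 41.6 points for Ms4a7, 46.0 for Nfam1 and 9.69 for Cfp on the always-open scale, against 56.6, 55.4 and 48.0.

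The scale on which ranks were taken changed most of the selection. When every list was cut to its 32952 highest-scoring peaks, 7481 promoters were open in all libraries and 345 of them (4.61%) had a range of at least 40 points, of which 196 were among the 652 (30.1% of the 652 and 56.8% of the 345). Ranked among the 7885 always-open promoters alone, 600 (7.61%) had such a range and 104 were shared (16.0% of the 652 and 17.3% of the 600). IgG then gave the highest mean for 86 and 233 promoters and the lowest for 185 and 238, in place of 9 and 599. The direction between the highest and lowest group reversed in 0 members open in all 12 libraries at equal lengths (479 of 652) and in 7 members ranked among always-open promoters.

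**Figure D4:**
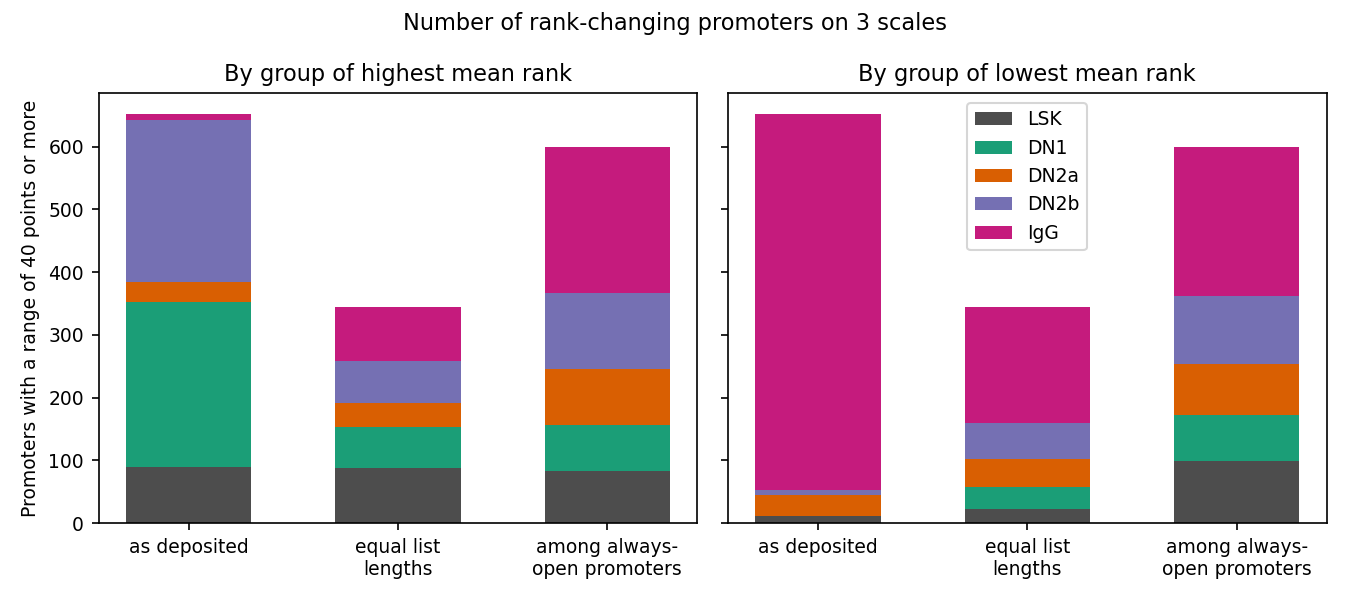
Number of promoters with a range of at least 40 points (y axis) on each of 3 scales (x axis), stacked by the group of highest mean (left) and of lowest mean (right). IgG is lowest for 599 of 652 promoters as deposited, 185 of 345 at equal list lengths and 238 of 600 among always-open promoters.

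On all 3 scales, 67 of the 652 promoters kept a range of at least 40 points, and 56 of them kept the same highest group. By group of highest rank these were 29 in DN2b, 20 in DN1, 10 in LSK, 8 in DN2a and 0 in IgG. The DN1 set held Hes1, Runx3, Ifih1 and, named after their values were seen, Psip1, a chromatin reader, Rfc1, the large subunit of the clamp loader, Apobec3, a cytidine deaminase against retroviruses, and Rasgrp4, a Ras activator of mast cells. On the always-open scale, however, the highest group was DN2a for Hes1, Ifih1 and Rasgrp4 and DN2b for Runx3. The DN2b set held Mill2, Maf and Cd274, and the DN2a set held Sirt5, Sac3d1 and, by the same later choice, the ubiquitin ligase gene Smurf1. Also chosen later, the LSK set held Foxo6, a forkhead factor, and Cbfa2t3, the corepressor ETO2, which stood at 94.8 to 96.2 in LSK, 93.2 and 95.1 in DN1, 79.2 to 86.7 in DN2a and DN2b, and 32.3, 29.3 and 86.3 in IgG.

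Differences chosen in some replicates were then read in the others. With the last replicate of each group held out of the ranks, the rule chose 858 of the 7885 promoters in the remaining libraries, although the held-out libraries had a part in the requirement that a promoter be open in all 12. In the held-out libraries, the chosen highest group stood above the chosen lowest group at 832 of them (97.0%), against 83.5% of all always-open promoters handled in the same way, with a median difference of 31.7 points against 6.89, and at least 40 points in 278 (32.4% against 5.87%). The highest group itself was the same in 201 (23.4%), near the 22.7% of all always-open promoters, but this share differed widely between the sets, with 66 of 70 promoters chosen as highest in DN2b (94.3%), 8 of 11 in IgG (72.7%), 45 of 82 in LSK (54.9%), 81 of 590 in DN1 (13.7%) and only 1 in DN2a (0.952%). With the choice made in the last replicates and read in the others, DN1 and DN2b changed places. The share was then 68 of 72 in DN1 (94.4%) and 82 of 688 in DN2b (11.9%). It was 8 of 16 in IgG (50%), 43 of 95 in LSK (45.3%) and 1 of 5 in DN2a (20%), and 202 of 876 in all (23.1%). On ranks among always-open promoters, which make no use of the other peaks of a list, 538 of 1020 chosen promoters (52.7%) had the same highest group in the held-out libraries, against 36.9%. Most of these were highest in IgG (296 of 389, 76.1%), a group that was highest at only 9 of the 652, and the shares were 58.8% for LSK, 40.3% for DN2b, 37.3% for DN1 and 23.1% for DN2a. IgG was lowest at 75.4% of all always-open promoters and had the shortest lists, and the part of either in the shared direction was not tested. The 97.0% is thus given as a description.

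The promoters also differed from other always-open promoters in features other than the score percentile. Their CpG ratio, the observed over expected number of CG pairs in 2 kb around the start, had a median of 0.588 against 0.658 in the 7233 others (0.587 in the LSK, 0.586 in the DN1, 0.586 in the DN2a, 0.606 in the DN2b and 0.349 in the IgG set). Low values belonged to Cd5 (0.20), Cd68 (0.18), C1qc (0.14) and Lyz2 (0.14), and Hes1 stood at 0.84. Another protein-coding gene started within 1 kb in 113 of the 652 (17.3%) and in 27.4% of the others. The top peak was centred at a median of 13 bp before the start, against 41 bp before it in the others, and its midpoint moved by more than 150 bp between the highest and lowest group in 65 (9.97% against 6.4%). These positions are not independent of the rule, which used the scores of the same top peaks and set the highest and lowest group. Zinc-finger genes, by symbol, made up 34 (5.21% against 2.79%). These are descriptions, and the members also ranked lower than other always-open promoters in every group, whose part in these differences was not tested.

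Matches to 14 short motifs were counted on both strands in the 300 bp around the top peak. The shares carry Wilson 95% intervals, which cover counting error only. Identical windows of members that share their top peaks (98 of the 652) were each counted, so the intervals are somewhat too narrow. The RBPJ core TGGGAA lay in 81 of the 264 DN1 promoters (30.7%, interval 25.4 to 36.5), in 18.0% of the LSK, 12.5% of the DN2a and 19.4% of the DN2b sets, and in 20.6% of all always-open promoters. It also lay in 4 of the 9 promoters highest in IgG (44.4%, interval 18.9 to 73.3). The E-box CAGGTG lay in 67 of the 258 DN2b promoters (26.0%, 21 to 31.6) and in 14.2% of all, but in 150 bp the shares were 8.91% and 6.02%. The PU.1 motif GAGGAAGT lay in 21 of the DN1 promoters (7.95% against 3.53%) and the ETS motif ACTTCCGG in 48 of the DN2b promoters (18.6% against 11.7%). The NRF1 motif, that of a factor bound at many CpG island promoters, was rarer among the 652 than among all (7.82% against 15.9%). Since DN1 and DN2b exchange promoters when 1 library is left out, these shares hold for the sets as listed. Of the other motifs, the motif AGATAA of GATA factors lay in 5.37% of the 652 against 3.54% of all and SP/KLF (GGGGCGGGG) in 21.6% against 25.7%, where in 150 bp the direction turned (17.9% against 17.5%). For RUNX (TGTGGT), C/EBP (TTGCNNAA), TCF1/LEF1 (CTTTGA), the E-box CAGCTG, AP-1 (TGANTCA), CRE (TGACGTCA) and CTCF, the share of all always-open promoters lay inside the interval of the 652. The CTCF motif can hold the letters of the E-box CAGGTG, so both can match the same bases.

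**Figure D5:**
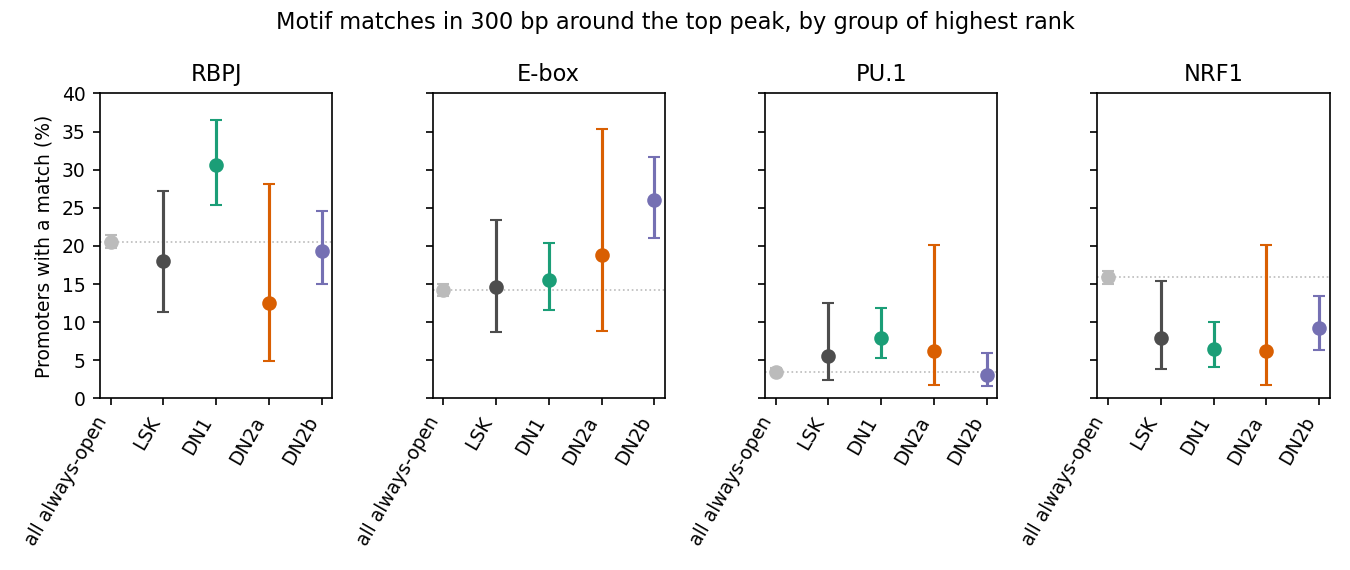
Share of promoters with a motif match in the 300 bp around the top peak (y axis, %) for all 7885 always-open promoters and for the sets highest in LSK (n = 89), DN1 (264), DN2a (32) and DN2b (258), with Wilson 95% intervals as bars and the share of all always-open promoters as a dotted line. Of the sets drawn, the RBPJ core has its highest share in DN1 (30.7%) and the E-box CAGGTG in DN2b (26.0%), and NRF1 lies below the line in each; the 9 promoters highest in IgG are not drawn.

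Fewer other peaks surrounded these promoters. Between 1 and 50 kb from the start, the 652 had 0.782 to 0.806 times as many peaks as an average always-open promoter in the 9 libraries outside IgG and 0.690 to 0.731 times in the IgG libraries. The 89 promoters of the LSK set had 0.717 to 0.752 times in the LSK libraries and 0.560 to 0.704 times in the others. The 9 promoters highest in IgG had 1.09 to 1.44 times in the IgG libraries and 0.860 to 1.17 times in the others. The DN1 set had 0.777 and 0.751 times in the DN1 libraries, 0.727 to 0.755 times in the other libraries outside IgG and 0.636 to 0.662 times in IgG. The DN2b set had 0.860 and 0.873 times in the DN2b libraries and 0.888 times in both DN2a libraries. It had 0.846 and 0.873 times in DN1, 0.827 to 0.856 times in LSK and 0.758 to 0.798 times in IgG. In these larger sets the ratio was lowest in IgG, and the group of highest rank did not stand above all other Delta1 stages.

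At the threshold, Rpl21, a ribosomal protein gene (DN1 89.1, IgG 49.1), and Tchp (LSK 77.6, IgG 37.6) lay just inside with ranges of 40.02 and 40.03 points. Enpp4 (DN2b 88.1, IgG 48.2) and Ckm, muscle creatine kinase (DN2b 85.7, IgG 45.7), lay just outside with 39.99 and 39.95. Of the 652 promoters, 98 shared all 12 top peaks with another member, so that 602 distinct sets of peaks underlie them, and 32 bore predicted or Rik names, of which Gm49486 is named. No score of a member reached 150, the highest value in the lists.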

How the data were processed

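Peak lists of 12 low-input, single-stranded DNase-seq libraries were analysed, one list to a library. Each peak is 150 bp wide and has a score, deposited by the authors as an integer of at most 150. The authors trimmed adapters, aligned reads to mm10 with bwa and called DHSs with hotspot2 at a false discovery rate cutoff. The submitters' processing notes name BWA 0.7.12 and SAMtools 1.2. What the score measures and the read depth are not given in the sources used here, so scores were used as ranks and no interval or floor from depth is given.

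Percentiles were 100 times the rank over the number of peaks on chromosomes 1 to 19 and X, with ties at their mean rank, computed with Python 3.11.15, numpy 2.4.6, pandas 2.3.3 and scipy 1.17.1. Gene starts came from GENCODE M21, a later release than the authors used, and bases from GRCm38.p6, the assembly named mm10. The selection step was run on simulated lists of equal length, with a shift in IgG only. Lists of unequal length, as in these data, were not simulated. Members and gene lists were chosen with earlier results of these data known, and since the rule used the values, no test was made. The 6 promoters of widest range in each group of highest rank, members of 4 gene lists, the 2 widest of each other list and those nearest the threshold were named by rule. Replicates were numbered in accession order and did not pair samples; per the study's methods they came from independent LSK isolates. The alternatives were equal list lengths, ranks among always-open promoters, tie handling, other windows, start sites, summed scores, thresholds, group medians and leaving out each replicate. The ranges without IgG and the held-out ranks among always-open promoters were added after the data were seen. A result that names an item withheld for evaluation is not reported here.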

Additional observations from a re-analysis of the deposited data

How the results depend on the processing

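The number of promoters with a range of at least 40 points was 652 as reported, 345 at equal list lengths, 600 with ranks among always-open promoters, 1427 with the scores of a window summed as well as ranked among always-open promoters, 52 without the IgG group, 1407 at a threshold of 30 points and 248 at 50 points. For the sets highest in LSK, DN1, DN2a, DN2b and IgG (89, 264, 32, 258 and 9 as reported), equal lengths gave 65 for DN1, 67 for DN2b and 86 for IgG, and ranks among always-open promoters 74 for DN1, 89 for DN2a, 121 for DN2b and 233 for IgG. Summed scores, ranked in the same way, gave 170 for LSK, 219 for DN2a, 399 for DN2b and 415 for IgG, and every protein-coding start site 18 for IgG. A threshold of 30 points gave 185, 538, 81, 587 and 16, one of 50 points 41, 90, 14, 99 and 4, and leaving out the IgG group 27, 16, 1 and 8. Leaving out 1 replicate at a time gave 625 to 872 promoters in all, 56 to 119 for LSK, 110 to 507 for DN1, 4 to 109 for DN2a, 100 to 687 for DN2b and 8 to 13 for IgG. Tie handling, windows of 500 bp and 2.5 kb, group medians and shared peaks counted once kept every count within 1.5 times the reported one. The share with the same highest group in held-out libraries was 23.4%, and 23.1% with the choice made in the last replicates. Between these splits it went from 94.3% to 11.9% for DN2b and from 13.7% to 94.4% for DN1. On ranks among always-open promoters the shares were 52.7% and 52.3%. There the promoters highest in IgG reached 76.1% and 76.5%, those in LSK 58.8% and 52.5%, in DN2b 40.3% and 41.3%, in DN1 37.3% and 41.0%, and in DN2a 23.1% and 28.0%. In windows of 150 bp, the share of the promoters less that of all always-open ones was 0.571 points for the E-box CAGGTG (5.42 in 300 bp), -5.08 for NRF1 (-8.04) and 0.405 for SP/KLF (-4.03), where the cause was not tested. Of 74 promoters followed, most of them named above, 51 moved by more than 1 SD on ranks among always-open promoters. With summed scores ranked in the same way 52 moved, and at equal lengths 10 moved and 36 had no value. Under the alternatives in all, ties, windows and left-out replicates included, 119 of 1667 values moved by more than 1 SD and 1 changed sign, Paqr7 with a window of 2.5 kb (-3.22 points between IgG and DN2a, 60.7 as reported). Many of the 1667 could not move that far. Another threshold or the loss of the IgG group leaves a difference as it is. Leaving out 1 replicate of so few shifts a group mean by less than 1 SD. The share that moved is thus no measure of stability. No paired analysis was possible because the labels carry no replicate numbers and the results come from no test. Depth was not known, so what a low rank owes to depth was not tested.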
